A study of Homo sapiens with 24 samples.

Results

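Drug efflux transporters of the ATP-binding cassette (ABC) family were followed by RNA-Seq in triple-negative breast cancer (TNBC) cell lines through 10 genes, namely ABCB1, ABCB5, ABCG2, ABCC1, ABCC2, ABCC3, ABCC4, ABCC5, ABCC10 and ABCA1. They were taken by gene symbol from 4 tables of 18248 to 60651 genes and are 10 of the 48 ABC genes looked up. The tables hold 24 libraries of poly-A RNA, in 8 groups of 3 biological replicates. Wild-type Hs578T (batch 1) and HCC70 (batch 2) cells were each sorted into breast cancer stem cells (BCSCs), defined by CD24-CD44+ and ALDH+ staining, and non-BCSCs that lacked both. By their labels, MDA-MB-231 cells carried a control sgRNA (sgCtrl) or KIF20A sg1, a single guide against the mitotic kinesin KIF20A (batch 3), or an empty vector (EV) or a KIF20A overexpression (OE) construct (batch 4). The depletion libraries are titled SG1, SG2 and SG3, and these numbers were read here as replicates of the 1 guide that the series' design names, so sg1 replicate 2 is the library titled SG2. The MDA-MB-231 cells were infected with lentivirus packaged in a human embryonic kidney cell line and selected with puromycin.

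ABC transporters bind and hydrolyse ATP to move substrates across membranes. ABCB1 (P-glycoprotein, MDR1) and ABCG2 (BCRP) are the classic multidrug pumps, and ABCG2 efflux of a Hoechst dye defines the side population used to mark stem-like cells. The ABCC genes encode multidrug resistance-associated proteins (MRPs) that export organic anions and conjugates, many of them with glutathione, while ABCA1 exports cholesterol and phospholipid.

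All groups of a comparison came from 1 table and 1 batch, so values of different tables stand side by side with no test. Depth, as reads recovered from the values, was 27354956 to 32821859 per Hs578T library and 24681218 to 33559417 per HCC70 library. The sgRNA libraries held 41424338 to 51018667 reads and the OE experiment 15971297 to 22182293. Hs578T expressed the mesenchymal markers at a summed 10200 to 12100 TPM (transcripts per 1000000, the unit of both sorted tables), and HCC70 expressed the epithelial markers at 5350 to 5960 TPM. Within Hs578T, ALDH1A3 rose from 289 ± 8.35 to 706 ± 4.32 TPM (SD, n = 3 each) in BCSCs, while CD44 (558 and 579 TPM) and CD24 (86.2 and 83.1 TPM) overlapped. In HCC70, ALDH1A3 was 87.3 ± 3.94 TPM in non-BCSCs against 98.4 ± 7.19 TPM in BCSCs, and CD24 was 912, 828 and 831 TPM against 685, 667 and 725 TPM (limma, adjusted p = 0.054).

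The targeted gene was checked first. KIF20A was 153, 173 and 156 scaled counts with sgCtrl and 122, 145 and 91.1 with sg1, which did not overlap, but the difference of -0.45 ± 0.16 (log2, SE) was not called (limma, adjusted p = 0.69). In the overexpression experiment KIF20A was 101, 143 and 124 CPM (counts per 1000000 reads) with EV against 1350, 269 and 896 CPM where the label was KIF20A OE. Those 3 OE libraries stood apart in other ways. CD44, at 523 to 788 CPM with EV, was at 0.125, 0.316 and 1.23 CPM. All 5 markers of embryonic kidney packaging cells averaged at least 1 CPM in the OE libraries, 0 of 5 did so with EV, and their summed level was 1580 to 2140 CPM against 0 to 0.143 CPM. IRS4 was 1750, 1220 and 1740 CPM, and CDKN2A, a gene deleted in MDA-MB-231, was 276, 336 and 353 CPM, while both were at 0 in every EV library. CDKN2A was also read in HCC70, at 152 to 235 TPM. The contrast by label is reported with these values beside it, and their part in the results was not tested.

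By GENCODE 44 on GRCh38, ABCB1 lies at chr7:87503017-87713323 (minus strand), ABCG2 at chr4:88090150-88231628 (minus), ABCC3 at chr17:50634777-50692253 (plus), ABCC4 at chr13:95019835-95301475 (minus) and ABCC5 at chr3:183919934-184017939 (minus).

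ABCB1 is shown here as sequence because it was read with EV at 0 and in the OE libraries at 123 to 250 reads each. RefSeq (GRCh38.p14) places 2 starts of ABCB1 on the minus strand of chromosome 7, and promoter windows of 250 bases were read for 7 of the 10 genes. The stretches of the ABCB1 windows that lie outside exons annotated in GENCODE 44, and 30 bases around a match in the exonic rest of the second window, read 5′ to 3′ as follows, with capitals marking CCAAT or its reverse complement ATTGG.
ABCB1 upstream chr7:87713324-87713545 (minus strand): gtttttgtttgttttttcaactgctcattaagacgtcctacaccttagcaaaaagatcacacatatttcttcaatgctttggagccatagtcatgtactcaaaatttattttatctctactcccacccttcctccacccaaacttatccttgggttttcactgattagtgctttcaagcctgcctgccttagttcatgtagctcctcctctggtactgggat
ABCB1 downstream, before the start chr7:87601079-87601134 (minus strand): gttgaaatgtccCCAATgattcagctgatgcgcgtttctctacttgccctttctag
ABCB1 downstream, around ATTGG chr7:87600946-87600975 (minus strand): gtggtgaggctgATTGGctgggcaggaaca
The upstream window held neither CCAAT nor GGGCGG on either strand. The downstream window held 2 CCAAT matches, which 32.0% of 35116 promoter windows held at least once, and no GGGCGG, which 42.6% held. These matches are letters in a window, and binding there was not tested.

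In the sorted lines, levels between genes were compared on the TPM scale, which is per transcript length. The 10 genes summed to 204 ± 2.06 TPM in Hs578T non-BCSCs, and their BCSC counterparts reached 199 ± 11.3 TPM. ABCC1 (MRP1), ABCC2 (MRP2) and ABCC3 (MRP3, an exporter of bile salts and glucuronides) led in Hs578T non-BCSCs with 50.3 ± 3.14, 49.7 ± 1.55 and 45.9 ± 1.97 TPM, and made up 24.6%, 24.3% and 22.5% of that sum. ABCC1 and ABCC2 overlapped in range, and ABCC2 lay above ABCC3. ABCC5, an exporter of cyclic nucleotides (18.2 ± 0.873 TPM), overlapped ABCC4, an exporter of cyclic nucleotides and prostaglandins (16.4 ± 1.02 TPM). Next came ABCC10, which exports taxanes, at 11.1, 12.2 and 13.2 TPM, ABCG2 at 9.02 ± 0.697, ABCA1 at 1.99 ± 0.224 and ABCB1 at 0.756 ± 0.116 TPM. Each of these 4 was separated from the next. In BCSCs the order was the same except that ABCC4 (16.6 ± 0.352 TPM) and ABCC5 (16.4 ± 0.806 TPM) overlapped with ABCC4 ahead, and ABCC10 (12.4 ± 0.983 TPM) overlapped ABCG2 (10.8 ± 0.565 TPM). ABCB5, a transporter known from melanoma stem-like cells, had 1 read in each of 2 of the 6 libraries.

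HCC70 carried a different set. ABCC5 led with 46.0 ± 2.46 TPM in non-BCSCs, followed by ABCC3 at 36.2 ± 1.67, ABCC1 at 29.3 ± 2.34, ABCC10 at 18.9 ± 1.11 and ABCA1 at 15.1 ± 1.17 TPM, with no overlap between neighbours. The order was the same in BCSCs, where the sum of the members was 159 ± 4.47 TPM against 146 ± 5.71 TPM. ABCC2 and ABCC4, which held 49.7 and 16.4 TPM in Hs578T, were at 0.136 ± 0.0817 and 0.383 ± 0.0167 TPM in HCC70, or 52 and 183 reads over 6 libraries. ABCG2 had 1 read in HCC70 non-BCSCs and 0 in BCSCs, where a count of 0 allows up to 0.0318 CPM, whereas Hs578T gave 3728 reads. ABCA1 differed in the other direction, at 1.99 TPM in Hs578T. The line is also the table and the batch, and these between-line values were not tested. ABCB1 was not among the genes listed for HCC70, of which 0 were at 0 in all 6 libraries, so it has no value there.

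**Figure D1:**
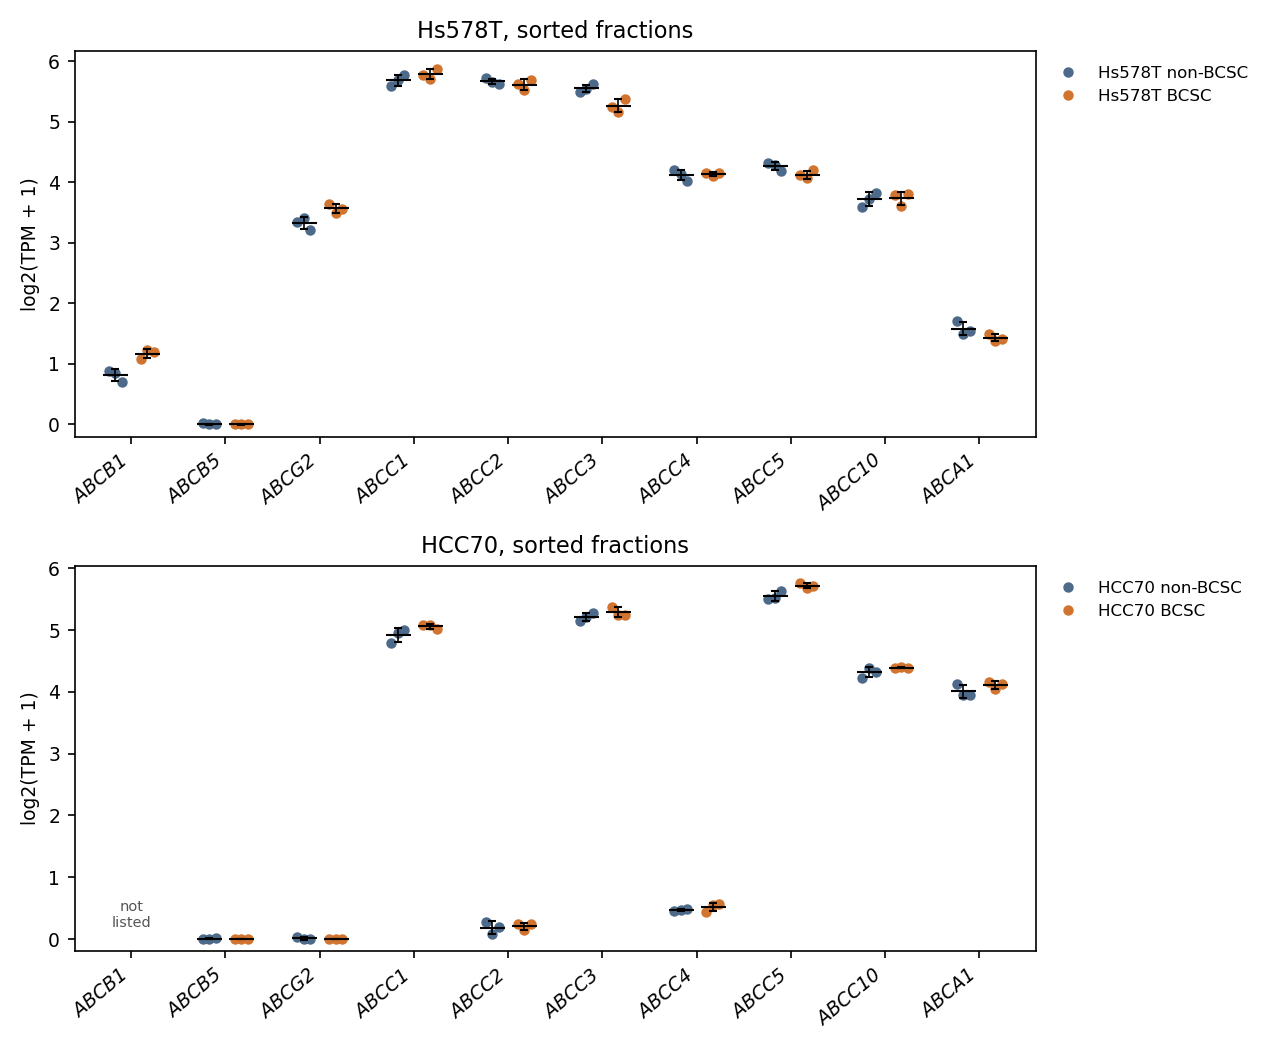
Level of each transporter gene in every sorted library, on a log2(TPM + 1) axis, for Hs578T (top) and HCC70 (bottom). Points are the 3 libraries of a group, black bars the mean and SD on that scale. ABCC2, ABCC4 and ABCG2 sit near 0 in HCC70 and well above it in Hs578T.

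The first comparison asked how BCSCs differ from non-BCSCs in Hs578T. ABCC3 was lower in BCSCs, and ABCG2 and ABCB1 had higher values in every BCSC library. Non-BCSC libraries held 44.1, 45.6 and 48.0 TPM of ABCC3, against 36.8, 34.8 and 40.6 TPM in BCSCs. In bulk RNA, fewer cells expressing a gene and less RNA per cell cannot be told apart. The groups did not overlap, and the log2 fold change, on the log2(value + 1) scale used throughout, was -0.29 ± 0.07 (SE; limma, adjusted p = 0.038). It was the only call among the 9 members tested, against 7.15% of all 13324 genes. The call fell away when any 1 of 5 of the 6 libraries was left out (adjusted p 0.063 to 0.14) and held without BCSC replicate 3 (adjusted p = 0.023). It also missed the threshold when no minimum level was set (adjusted p = 0.069). By limma the call held after the median of ratios (adjusted p = 0.046) and after quantile normalization (adjusted p = 0.041). It also held with a minimum mean of 5 (limma, adjusted p = 0.027) and with a replicate block (adjusted p = 0.035).

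Non-BCSC levels of ABCG2 were 9.14, 9.66 and 8.28 TPM, against BCSC levels of 11.5, 10.3 and 10.8 TPM. All BCSC libraries were above all non-BCSC libraries, by 0.24 ± 0.07 on the log2 scale (limma, adjusted p = 0.085). ABCB1 was 0.837, 0.81 and 0.623 TPM (46, 50 and 41 reads) in the non-BCSC libraries, against 1.12, 1.35 and 1.28 TPM (68, 84 and 85 reads) in the BCSC ones. It likewise did not overlap, with a log2 fold change of 0.36 ± 0.11 that was not called by limma (adjusted p = 0.11). On recovered reads edgeR called both, ABCB1 at 0.75 (adjusted p = 0.0092) and ABCG2 at 0.29 (adjusted p = 0.024), as did DESeq2 (adjusted p = 0.045 and 0.023). ABCB1 reached the minimum level only through the BCSC libraries (mean 1.25 against 0.756 TPM). Its p-values and lack of overlap therefore carry that selection and are not used as support. Both tools also called ABCC3 lower, at -0.28 (edgeR adjusted p = 0.012, DESeq2 adjusted p = 0.0003). Those tools called 12.3% and 10.7% of all genes. Median-of-ratios scaling with limma called ABCG2 (adjusted p = 0.044) but moved the genes called higher and lower from 386 and 567 to 620 and 573, 8.95% of genes in all.

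Of the others, ABCA1 was lower in every BCSC library (1.82, 1.61 and 1.65 against 2.25, 1.83 and 1.90 TPM), but its log2 difference of -0.15 ± 0.10 was not called (limma, adjusted p = 0.42). ABCC5 went from 18.2 ± 0.873 to 16.4 ± 0.806 TPM (log2 -0.14, limma adjusted p = 0.20), and the groups overlapped. ABCC1, ABCC2, ABCC4 and ABCC10 differed by -0.05 to 0.11. Their 95% intervals reached at most 0.26 up and -0.18 down. In all, 4 of 9 members had groups that did not overlap, against 29.0% of all genes. ABCB1, which passed the minimum level only through the BCSC libraries, is among them. The median log2 fold change was 0.02 against -0.01 for all genes.

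In HCC70 the same comparison gave 5 members above the minimum level, none of them called by limma, against 2.83% of 13218 genes. An unadjusted p under 0.05 by limma was found for 1 of the 5 and for 3134 of all genes. edgeR and DESeq2, which called 5.41% and 8.83% of all genes, called 0 of the 5 members. Their log2 fold changes ran from 0.08 to 0.16, with a median of 0.11 against 0.02 for all genes. Non-BCSC levels of ABCC5 were 44.5, 44.7 and 48.9 TPM, against BCSC levels of 53.0, 50.1 and 51.6 TPM. The groups were apart, with a log2 difference of 0.16 ± 0.06 (limma, adjusted p = 0.15). ABCC1 was 26.7, 30.1 and 31.2 against 33.0, 32.7 and 31.4 TPM, also apart (0.14 ± 0.07, adjusted p = 0.26 by limma). Of the 5, 2 did not overlap, against 30.9% of all genes. ABCC3 (0.08 ± 0.06), ABCC10 (0.08 ± 0.06) and ABCA1 (0.11 ± 0.07) overlapped. For every member tested the upper end of the 95% interval was at most 0.30.

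Whether the BCSC effect differed between the lines was tested as an interaction over the 12 sorted libraries. ABCC3 differed by 0.37 ± 0.09 on the log2 scale (HCC70 effect minus Hs578T effect; limma, adjusted p = 0.036) and ABCC5 by 0.30 ± 0.08 (adjusted p = 0.043), against 7.11% of 11666 genes called. ABCC3 was lower in Hs578T BCSCs, and ABCC5 averaged lower in Hs578T BCSCs and higher in HCC70 BCSCs. ABCC3 passed in 4 and ABCC5 in 3 of the 12 fits that left out 1 library, and the call was lost for both genes without any 1 of Hs578T non-BCSC replicates 1 and 2, Hs578T BCSC replicates 1 and 2, HCC70 non-BCSC replicates 1 and 2 and HCC70 BCSC replicate 1. After the median of ratios ABCC3 missed the threshold (0.32, adjusted p = 0.057) and ABCC5 passed (0.25, adjusted p = 0.049), and neither passed with a replicate block (adjusted p = 0.065 and 0.099). ABCC1, ABCC10 and ABCA1 were not called, at 0.03, 0.06 and 0.26. Line and batch cannot be told apart in this test.

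The next comparison asked what depletion of KIF20A does in MDA-MB-231 cells. No member was called of 8 tested. Limma and edgeR called 0.0% of 12852 genes, with 899 at an unadjusted p under 0.05 by limma, and DESeq2 called 11 genes (0.0856%), 0 of them members. With sgCtrl, per kb of merged exon, ABCC1 stood at 10.8 ± 1.46 scaled counts, ABCC3 at 9.95 ± 3.42, ABCA1 at 7.59 ± 1.18 and ABCC4 at 6.02 ± 0.581. ABCC10 (3.68), ABCC5 (3.36), ABCG2 (1.07) and ABCC2 (0.207) followed. ABCC1 overlapped ABCC3, ABCC3 overlapped ABCA1, and ABCC10 overlapped ABCC5. ABCB1 had 2 reads in 1 library of each group and ABCB5 had none in any.

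ABCG2 was 7.61, 5.12 and 5.22 scaled counts with sgCtrl and 11.8, 10.9 and 7.35 with sg1. The groups overlapped, since sg1 replicate 3 lay below sgCtrl replicate 1. The log2 difference was 0.65 ± 0.21 (95% interval 0.19 to 1.12) and had an adjusted p of 0.69 by limma, with 0 of 8 members apart against 13.0% of all genes. ABCA1 was 101, 75.2 and 82.1 with sgCtrl and 35.5, 142 and 37.7 with sg1. A single library, sg1 replicate 2, held the highest value of all 6, and the other sg1 libraries held the lowest. The log2 difference was -0.56 ± 0.41 (limma, adjusted p = 0.76), and without sg1 replicate 2 it was -1.20 (adjusted p = 0.030), 1 of 5 genes called in that fit.

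ABCC3 was 116, 114 and 57.7 with sgCtrl and 106, 104 and 97.8 with sg1, so its sgCtrl spread rested on replicate 3, which also gave the lowest ABCC10 value (20.0 against 32.0 and 37.3). The log2 difference of ABCC3 was 0.17 ± 0.22 (limma, adjusted p = 0.87). ABCC1, ABCC2, ABCC4, ABCC5 and ABCC10 differed by -0.05 to 0.14 on the log2 scale. Their 95% intervals all held 0 and were -0.23 to 0.38 for ABCC1, -0.42 to 0.44 for ABCC2, -0.15 to 0.44 for ABCC4, -0.40 to 0.31 for ABCC5 and -0.50 to 0.39 for ABCC10.

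**Figure D2:**
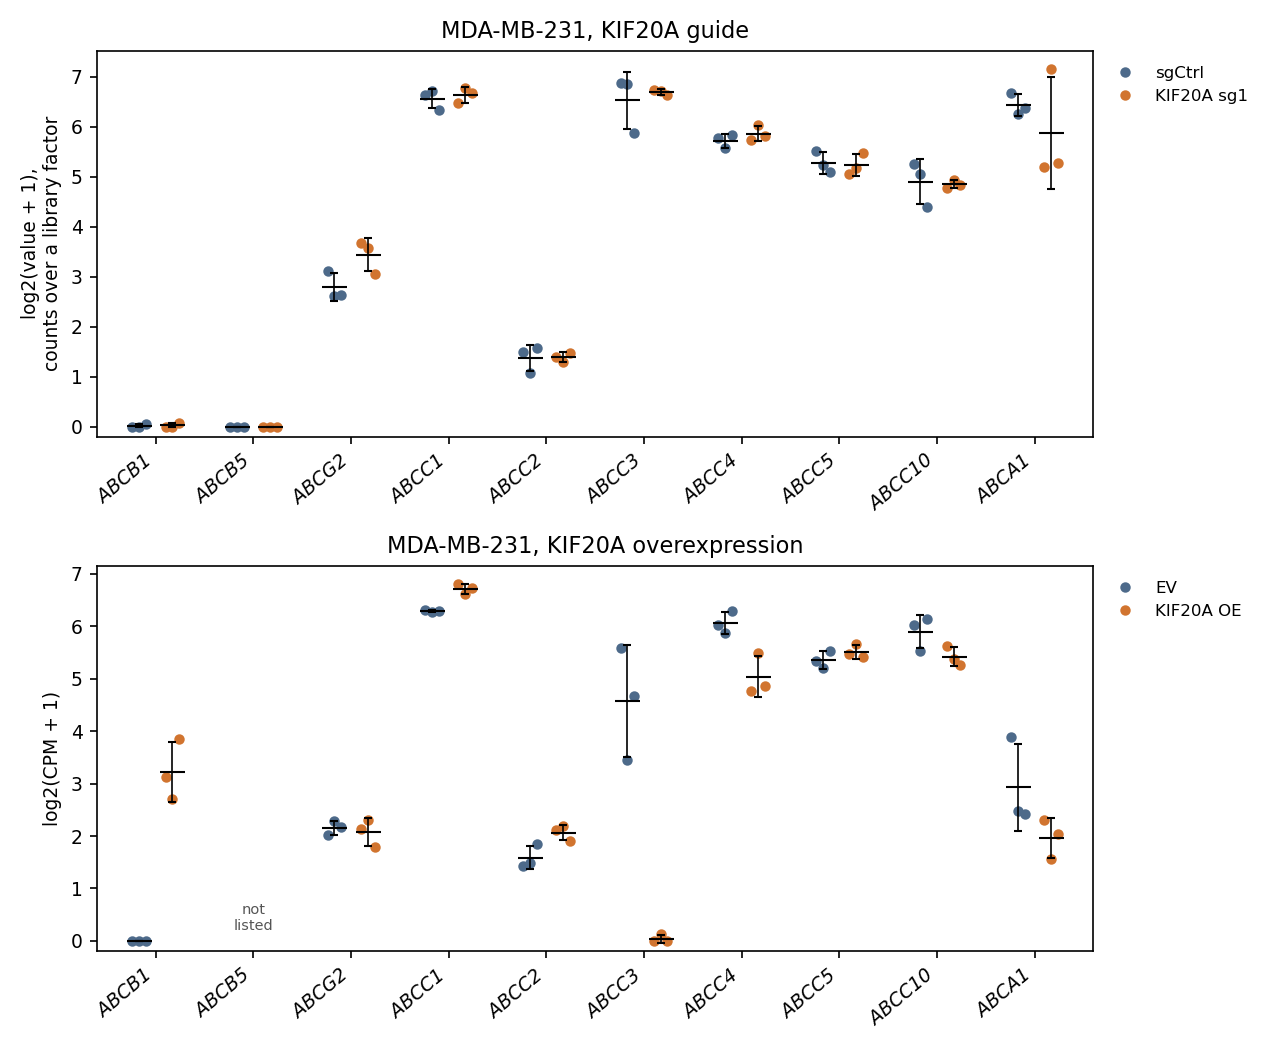
Level of each transporter gene in every library labelled MDA-MB-231, as log2(value + 1) of scaled counts for sgCtrl and sg1 (top) and of CPM for EV and KIF20A OE (bottom). Points are libraries, black bars the mean and SD. In the OE libraries ABCB1 is up from 0 and ABCC3 is at or near 0; ABCA1 of sg1 replicate 2 lies far above the other sg1 libraries.

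The last comparison set the libraries labelled KIF20A OE against EV. Here 5 of 9 members tested were called, 2 higher and 3 lower, against 69.7% of 15265 genes, 46.2% higher and 23.4% lower, and 6 of 9 had groups that did not overlap, against 74.1%. All genes together were shifted by a median of 0.37 on the log2 scale before rescaling and by 0.04 after the median of ratios; genes called higher and lower numbered 7055 and 3579 before and 5218 and 4968 after. Members had a median of -0.08, and of -0.36 after the median of ratios, when 1 was called higher and 4 lower against 34.2% and 32.5% of all genes (66.7% together). edgeR, which called 65.1% of genes, and DESeq2, which called 66.7%, called 5 members each. ABCB1 passed the minimum level through the OE libraries alone and ABCC3 through EV alone, so the groups had to differ for these 2 genes, whose differences are given below as reads, with no p-value. Of the other 7, 3 were called, ABCC1 higher and ABCC4 and ABCC10 lower. ABCB5 was not among the genes listed for the OE experiment, of which 0 were at 0 in all 6 libraries, so it has no value there.

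ABCB1 had 0 reads in all 3 EV libraries and 123, 123 and 250 reads, or 7.70, 5.54 and 13.4 CPM, in the OE libraries. Taking the floor of 3 reads over the EV group (0.0511 CPM), the OE mean of 8.88 CPM was at least 174-fold higher. In the sgCtrl and sg1 groups, 4 reads were found in 6 libraries.

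ABCC3 had 989, 206 and 419 reads (47.1, 9.96 and 24.6 CPM) in EV and 0, 2 and 0 reads in the OE libraries. Reads pooled and corrected for depth gave an EV to OE ratio of 781, with an exact 95% interval of 216 to 6460 that covers counting error only. ABCC3 was 57.7 to 116 scaled counts in the sgRNA experiment. ABCC4 fell from 64.0, 57.8 and 77.7 CPM to 26.1, 44.2 and 28.2 CPM, by 1.02 ± 0.21 on the log2 scale (limma, adjusted p = 0.0029). Its groups did not overlap, and it was called in each fit without 1 library.

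ABCC10 went from 64.0, 45.3 and 69.3 CPM to 48.1, 40.8 and 37.2 CPM, with overlap, by -0.48 ± 0.19 (limma, adjusted p = 0.047), and was called in 2 of 6 fits without 1 library (adjusted p up to 0.15) and not without a minimum level (adjusted p = 0.054). After the median of ratios it was -0.84 (adjusted p = 0.0042). It shares 76 exon bases with DLK2 on the opposite strand. ABCC1 went from 78.2, 76.8 and 77.0 CPM to 111, 96.7 and 105 CPM, by 0.42 ± 0.11 (limma, adjusted p = 0.0076). That is about the shift of all genes, and after the median of ratios the value was 0.06 (adjusted p = 0.66) and by edgeR 0.08.

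ABCA1 was 13.8, 4.59 and 4.35 CPM in EV and 3.94, 1.94 and 3.11 CPM in OE, with no overlap and a log2 difference of -0.96 ± 0.41 that missed the threshold (limma, adjusted p = 0.063). It was called after the median of ratios (adjusted p = 0.030), by edgeR (0.024) and by DESeq2 (0.0053). ABCC2 (0.48, adjusted p = 0.061 by limma), ABCC5 (0.16) and ABCG2 (-0.08) were not called. ABCC5 was -0.20 after the median of ratios and ABCC2 -0.19 after quantile normalization, so both changed sign with the scaling. ABCG2 was -0.74 after quantile normalization and was called lower there (limma, adjusted p = 0.017), when 66.9% of all genes were called. Per kb of merged exon, ABCC1 (11.9 CPM) and ABCC10 (5.20 CPM) led in OE, apart from each other, and ABCC1 (8.85), ABCC4 (7.70) and ABCC10 (7.36 CPM) led in EV, each overlapping the next. ABCB1, at 1.38 CPM per kb, lay between ABCC4 (3.81) and ABCG2 (0.584) in OE.

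**Figure D3:**
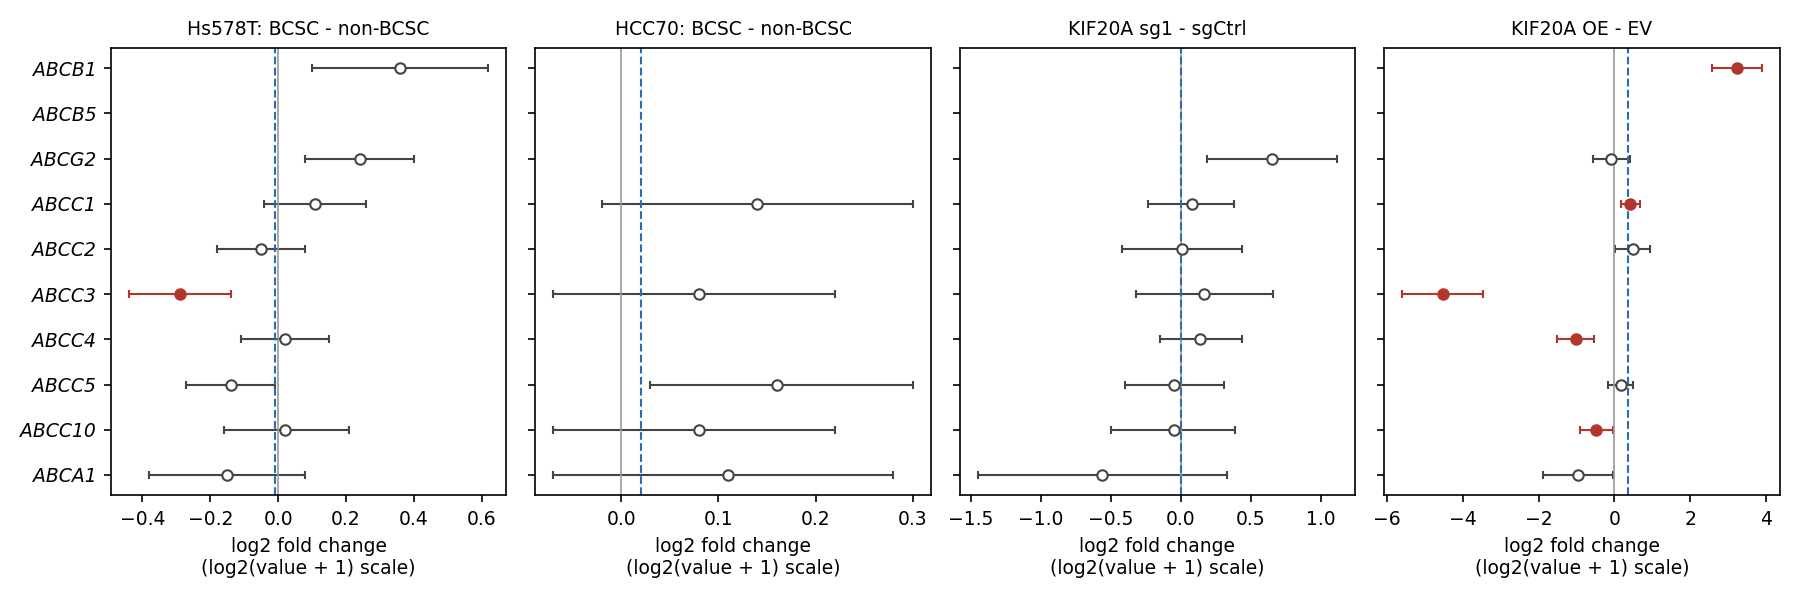
Log2 fold change of each tested member in the 4 comparisons, with its 95% interval; x axes differ in range. Red filled points are called by limma (adjusted p under 0.05), the grey line is 0 and the blue dashed line the median of all genes. ABCB1 and ABCC3 lie farthest out, in OE against EV, and ABCC1 lies beside the median of all genes there and is not called after the median of ratios.

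**Figure D4:**
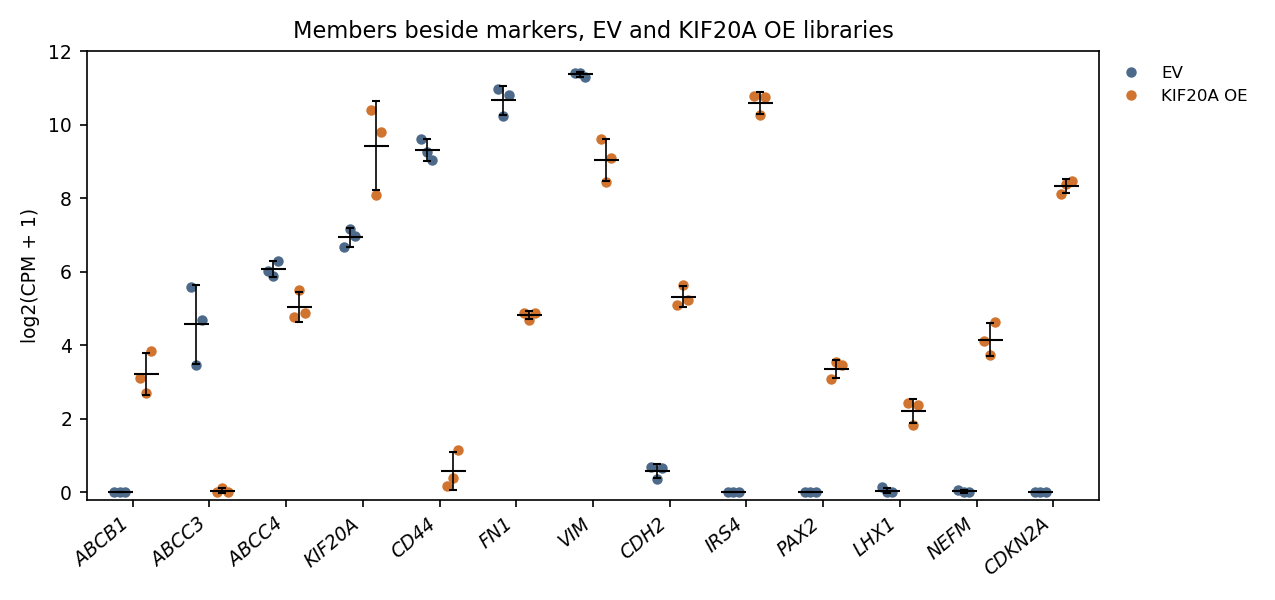
ABCB1, ABCC3 and ABCC4 beside KIF20A and cell markers in the EV and KIF20A OE libraries, as log2(CPM + 1), with mean and SD in black. CD44 lies near 0 in the OE libraries; IRS4, PAX2, NEFM and CDKN2A lie near 0 in EV and above it in OE, as ABCB1 does.

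Related genes were read from 5 lists. In Hs578T limma called 7.15% of all genes. Among 38 other ABC genes, 19 were tested there and 1 was called, ABCA8. It rose from 2.86 ± 0.0929 to 4.36 ± 0.290 TPM in BCSCs (0.47 ± 0.08, limma adjusted p = 0.011). Of 16 tested regulators of transporter genes, HIF1A (358 ± 17.4 to 309 ± 5.73 TPM) and EPAS1 (21.9 ± 0.444 to 18.8 ± 0.616 TPM), both hypoxia-inducible factor subunits, fell by 0.21 (limma, adjusted p = 0.040 and 0.038), though EPAS1 missed the threshold after the median of ratios (0.064). EZR (ezrin), which anchors membrane proteins to actin, rose from 64.0 ± 0.645 to 73.4 ± 2.34 TPM. MGST1, a microsomal glutathione transferase, rose from 106 ± 5.59 to 129 ± 3.01 TPM. The list of drug uptake and metal transport had 0 of 9 called by limma in Hs578T, 3 of them at an unadjusted p under 0.05. Of all 13324 genes, 2993 were at that unadjusted p by limma. In this list edgeR called 2 and DESeq2 1, against 12.3% and 10.7% of all genes. The medians of the 5 lists lay between -0.05 and 0.00 there, against -0.01 for all genes. In HCC70, GSS (glutathione synthetase) was the one call over the 5 lists, from 144 ± 6.69 to 173 ± 3.52 TPM (limma, adjusted p = 0.047, and 0.084 after the median of ratios). Limma called 2.83% of all HCC70 genes. In sg1 against sgCtrl, limma, edgeR and DESeq2 called 0 genes of the 5 lists, with 1 gene of the other ABC genes and 0 of the other lists at an unadjusted p under 0.05 by limma. Of all 12852 genes, 899 were at that unadjusted p.

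In OE against EV the calls were numerous in the lists as among all genes. Of 23 tested other ABC genes, 12 were called higher and 5 lower. Of 16 regulators, 4 were higher and 8 lower. Limma called 46.2% of all genes higher and 23.4% lower. Among the called ABC genes, ABCA8, ABCC6, ABCC8 and ABCG4 passed the minimum level through the OE libraries alone, and ABCA13 through EV alone. For these genes the groups had to differ. AHR (aryl hydrocarbon receptor) fell from 145 ± 11.7 to 9.86 ± 3.41 CPM and EPAS1 from 72.9 ± 33.8 to 12.6 ± 3.39 CPM. ARNT and FOXO3 were called higher before rescaling but not after the median of ratios, when 0 regulators were higher and 9 lower. Of all genes, 34.2% were then called higher and 32.5% lower. ABCB9 (lysosomal peptide transporter) fell from 39.4 ± 6.29 to 13.6 ± 0.466 CPM, and ABCC8, the sulfonylurea receptor of the K-ATP channel, was at 0 reads in EV and 668 reads in OE. ABCG4, a sterol transporter, rose from 0.419 ± 0.279 to 13.2 ± 5.45 CPM, and ABCA13 had 117 reads in EV and 0 in OE.

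Of the 10 tested genes for drug uptake and metal transport, 3 were higher and 5 lower, against 46.2% and 23.4% of all genes. SLC19A1, the folate carrier that also takes up methotrexate, was at 0 in each EV library and at 84.2, 110 and 115 CPM in OE. MVP, the major vault protein, fell from 290 ± 24.4 to 9.43 ± 4.42 CPM, and SLC22A3, an organic cation transporter, from 27.2 ± 6.84 to 0.0601 ± 0.104 CPM. SLC19A1 passed the minimum level through the OE libraries alone, and SLC22A3 and SLCO1B3 through EV alone, so their groups had to differ. ATP7B, a copper exporter, rose from 6.16 ± 2.11 to 27.2 ± 1.89 CPM. The glutathione list had 6 of 7 tested genes higher before rescaling, against 46.2% of all genes. After the median of ratios 3 were higher and 1 lower, against 34.2% and 32.5% of all genes. GSTP1, a glutathione transferase, rose from 143 ± 26.3 to 494 ± 19.7 CPM, and GSR from 35.1 ± 10.4 to 121 ± 13.4 CPM. In the anchoring and trafficking list MSN (moesin) fell from 2290 ± 693 to 291 ± 49.2 CPM and EZR from 489 ± 61.1 to 192 ± 8.51 CPM. RAB11A was not called after the median of ratios. Against 0.37 for all genes, the median log2 fold change was 0.47 for the other ABC genes, -0.46 for the regulators, -0.06 for anchoring and trafficking, -0.82 for uptake and metal transport and 1.03 for glutathione. These lists moved beside the markers given above, and their part in it was not tested.

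**Figure D5:**
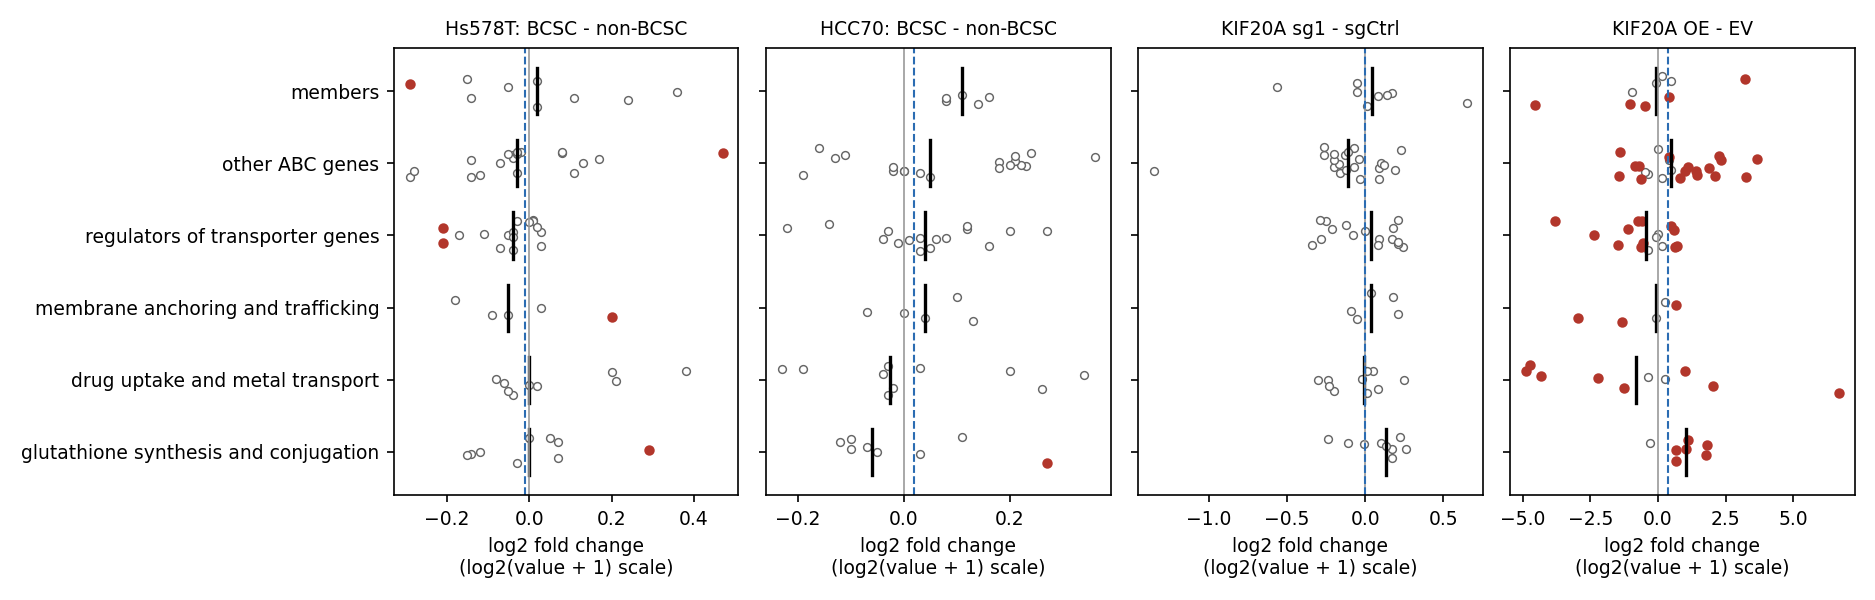
Log2 fold change of each tested gene of the members and the 5 related lists in the 4 comparisons; x axes differ in range. Red points are called by limma, black bars list medians, the blue dashed line the median of all genes. Calls are few in the sorted lines, absent in sg1 against sgCtrl and many in OE against EV, where 69.7% of all genes were called.

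Genes whose levels went most alike with a member over all 24 libraries, z-scored within each table, were found among 9902 genes tested in all 4 comparisons. The points share libraries and depth, and the correlations are given with no test. Group differences were not removed first, so the contrast of OE against EV, where limma called 69.7% of genes, enters each r. ABCC1 went with GTF3C1 (Pearson r = 0.91), SMPD4 (0.88) and RPAP1 (0.88). ABCC3 went with SMG6 (0.92), ENO2 (0.92) and PLBD2 (0.89), and ABCC10 with SDC3 (0.90) and RIPOR1 (0.89). ABCC5 went with TGFB3 (0.87), ZNF3 (0.83) and VAMP1 (0.83), and ABCA1 with PLPP5 (0.82), PTPRG (0.81) and RBKS (0.80).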

How the data were processed

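Poly-A RNA of 24 libraries was sequenced on stranded paired-end libraries. The submitters' processing notes name HISAT2 2.0.5, featureCounts 1.5.0-p3 and GRCh38. The authors deposited TPM for Hs578T and HCC70, CPM for the OE experiment, and, for the sgRNA experiment, a signal of counts divided by 1 factor per library (column sums 977394 to 1028621), called scaled counts here. Whole reads were recovered from 100% of the values of the MDA-MB-231 tables (tolerance 0.02 of a read) and from 99.99% to 100% of the TPM genes, where reads sharing a divisor may be too low. Older gene symbols were updated from a symbol table and RefSeq synonyms. Genes with a mean of at least 1 were tested by limma 3.58.1 (R 4.3.3) with a trend on log2(value + 1), two-sided, with Benjamini-Hochberg adjustment over all genes tested, and called at an adjusted p under 0.05. The method was tested on simulated reads with the same dispersion for every gene. That setting leaves out the uneven spread between libraries seen here, so no result rests on that test. Count tests on recovered reads (edgeR 4.0.16, DESeq2 1.42.0), other pseudocounts, minimums and scalings, a replicate block and each library left out were alternatives. Exact permutation of 3 against 3 cannot go below p = 0.10. Exon lengths and overlaps come from GENCODE 44. The members and lists were chosen with earlier results of these data known. All 10 members were named; genes of lists are those called with the 2 largest rises and falls; the 3 most alike genes were taken by Pearson r, of which 1 for ABCC10 is not reported here.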

Additional observations from a re-analysis of the deposited data

Results flagged for a closer look

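The BCSC effect on ABCC3 and on ABCC5 differed between the lines by the interaction test over the 12 sorted libraries. For ABCC3 the HCC70 effect minus the Hs578T effect was 0.37 on the log2 scale (limma, adjusted p = 0.036), with 0.08 in HCC70 and -0.29 in Hs578T. For ABCC5 it was 0.30 (adjusted p = 0.043), with 0.16 in HCC70 and -0.14 in Hs578T. The test called 7.11% of all genes. Neither call held with a replicate block (adjusted p = 0.065 and 0.099), ABCC3 missed the threshold after the median of ratios (0.057), and ABCC3 was lost in 8 and ABCC5 in 9 of the 12 fits without 1 library. Line, table and batch coincide here and cannot be told apart.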

How the results depend on the processing

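The number of members called was 1 in Hs578T and became 2 with the median of ratios and 3 with edgeR and with DESeq2. The counts of edgeR and DESeq2 include ABCB1, which passed the minimum level only through the BCSC libraries. Leaving out 1 library gave 0 to 1. Without a minimum ABCB1 was called and ABCC3 was not. HCC70 stayed at 0 throughout. In sg1 against sgCtrl it was 0, and 0 to 1 without 1 library (1 without sg1 replicate 2). In OE against EV it was 5, and 4 to 6 without 1 library. There it was 4 with a pseudocount of 0.1 and without a minimum (ABCC10 lost), 4 with a minimum mean of 5 (ABCB1 not tested), 6 with the replicate block and 7 with quantile normalization (ABCA1 and ABCG2 added). All counts for OE against EV include ABCC3, and ABCB1 where tested, although both met the minimum of the main fit through 1 group alone. The interaction gave 2, then 1 with the median of ratios and 0 to 2 without 1 library.

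Some values changed sign with the setting. ABCC5 in OE against EV was -0.20 with the median of ratios, -0.04 with quantile normalization and -0.19 with edgeR and DESeq2, ABCC2 there -0.19 with quantile normalization (0.48 before), ABCC1 in the interaction -0.02 with the median of ratios, and ABCC2 in sg1 against sgCtrl 0.00 with DESeq2. Without 1 library, ranges crossed 0 for ABCC1 (-0.03 to 0.16), ABCC2 (-0.14 to 0.11), ABCC3 (-0.16 to 0.34), ABCC5 (-0.17 to 0.07) and ABCC10 (-0.31 to 0.13) in sg1 against sgCtrl, ABCC4 (-0.03 to 0.06) and ABCC10 (-0.04 to 0.09) in Hs578T, ABCG2 (-0.20 to 0.06) in OE against EV, and ABCC1 (-0.03 to 0.08) and ABCC10 (-0.01 to 0.11) in the interaction. The cause was not tested.

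Genes called of all tested numbered 953 in Hs578T and 1633 with edgeR; without 1 library they ranged from 342 to 880 and were past 1.5 times from 953 without non-BCSC replicate 1 (487), non-BCSC replicate 2 (342) or BCSC replicate 1 (394). In HCC70 374 became 178 without a minimum, 232 with the median of ratios, 235 with quantile normalization, 715 with edgeR, and 1167 with DESeq2; without 1 library the range was 32 (without BCSC replicate 1) to 268 (without non-BCSC replicate 1), and that highest one was the only one of the 6 within 1.5 times. In sg1 against sgCtrl 0 became 11 with DESeq2, 144 without sgCtrl replicate 3 and 5 without sg1 replicate 2. Genes called higher and lower split as 790 and 843 with edgeR and 737 and 682 with DESeq2 in Hs578T (386 and 567 before), and as 441 and 274 and 635 and 532 in HCC70 (301 and 73 before); in OE against EV they split as 5546 and 4665 with quantile normalization, 5099 and 4832 with edgeR and 5230 and 4955 with DESeq2. Replicate numbers did not pair the libraries: deviations of same-numbered libraries correlated at -0.161 to 0.185, and 4 of 12 control libraries correlated best with their own number. In the sgRNA experiment each sgCtrl library correlated best with an sg1 library of another number, at 0.254 to 0.276. Whether libraries were paired under other numbers was not tested. With the replicate block, HCC70 fell from 374 to 128 genes called, ABCA1 in OE against EV passed (adjusted p = 0.020) and the interaction gave 0 members; the block changed no other call of a member. Counts of 0 and bounds cover counting error only.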
